A study of Rattus norvegicus with 6 samples.

Results

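The genes described here were 21 genes of the ATF4 and amino acid response and 19 genes of protein folding and degradation in the endoplasmic reticulum (ER), 40 of the 20675 genes in the deposited table. They were taken by gene symbol from a list, and all 40 were present. Their RNA levels come from sequenced libraries of primary rat disc cells, grown from the fibrous pad of the temporomandibular joint (TMJ), the jaw joint. Cells were exposed for 24 h to GSK101, which opens the calcium-permeable channel TRPV4 (3 libraries), or for the same 24 h to its solvent DMSO (Ctrl, 3 libraries). The sources used here give neither the dose of GSK101 nor the rats' strain or age. They also do not say whether the replicates came from separate animals or cultures, so the p-values measure only the spread between these libraries, which may be technical.

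The ATF4 pathway, also called the integrated stress response, starts with kinases that phosphorylate the translation factor eIF2. General protein synthesis then slows while the ATF4 messenger RNA is translated more, and the ATF4 protein switches on genes for amino acid synthesis, amino acid uptake, redox control and feedback. The unfolded protein response of the ER overlaps with it through the kinase PERK and adds the factors XBP1 and ATF6, which switch on chaperones, disulfide isomerases and the ER-associated degradation (ERAD) machinery. Fibroblast-like cells that secrete collagen pass large amounts of protein through this folding system. ATF4 activity is set mainly by translation and ATF6 and XBP1 activity by cleavage and splicing, none of which is read by the gene-level RNA values here.

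The short sequences through which these factors are known to act are shown first. Expression values did not enter the search for them, but did enter the choice of the whole windows printed below. Promoter sequences came from RefSeq (build GRCr8) and were matched by symbol for 35 of the 40 genes, and Slc1a5, Atf6, Manf, Pdia3 and Pdia6 had none in the table. The 250 bases before each annotated start were searched on both strands for the C/EBP-ATF element TGATGNAA, the ER stress element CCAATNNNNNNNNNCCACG and the XBP1 core ACGTGG, and no matches overlapped. The C/EBP-ATF element was found in 4 of 20 ATF4 and amino acid genes (20.0%), in 1 of 15 ER genes (6.67%) and in 3.58% of all 27457 genes of the promoter table. The ER stress element was found in 7 of 15 ER genes (46.7%), in 0 of 20 ATF4 and amino acid genes and in 0.0765% of all genes, 21 in number. The XBP1 core was found in 4 of 15 ER genes (26.7%), in 2 of 20 ATF4 and amino acid genes and in 7.41% of all genes. A match describes letters in this window and does not show binding. The 8 matches to the ER stress element are given 5′ to 3′ on the strand of the match, with the fixed letters in capitals. The search pattern set these letters and their spacing, and only the lowercase letters were free to differ.
Xbp1: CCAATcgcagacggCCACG
Hspa5: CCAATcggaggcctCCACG
Hsp90b1, first: CCAATcgaaaggagCCACG
Hsp90b1, second: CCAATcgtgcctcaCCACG
Calr: CCAATcagggtcgaCCACG
Canx: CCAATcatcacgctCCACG
Dnajc3: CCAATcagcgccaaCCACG
Creld2: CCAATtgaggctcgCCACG

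The 5 matches to the C/EBP-ATF element are given in the same way with 8 bases on either side.
Trib3: cgcccggcTGATGtAAacctgagc
Chac1: agcaggagTGATGcAAcggcggag
Slc7a1: cgcgcggcTGATGaAAccggctcg
Slc1a4: tggctggaTGATGcAAcgctggag
Herpud1: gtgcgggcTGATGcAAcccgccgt

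Of the 5 genes with a C/EBP-ATF match, 4 fell with GSK101 in the test described next and 1, Slc7a1, did not pass. Of the 7 genes with an ER stress element, 2 rose, 1 fell and 4 did not pass. Of the 6 genes with an XBP1 core, 0 rose, 3 fell and 3 did not pass, and Slc1a4 and Herpud1 among them also have a C/EBP-ATF match. Of all genes tested 20.1% rose and 11.9% fell, so the counts for the ER stress element lie near the background. The C/EBP-ATF matches lie mostly in the ATF4 and amino acid genes, and 61.9% of that whole group fell. Any link between a match and a fall was not tested. The whole windows are shown for the genes past the test with a match and the smallest adjusted p, 2 from each group, on the gene's strand from 250 bases before the start, with matched letters in capitals. Trib3 (GRCr8 chr3:161275534-161275783, minus strand) has its match 21 to 14 bases before the start, and Chac1 (chr3:126795881-126796130, plus strand) has it 167 to 160 bases before.
Trib3: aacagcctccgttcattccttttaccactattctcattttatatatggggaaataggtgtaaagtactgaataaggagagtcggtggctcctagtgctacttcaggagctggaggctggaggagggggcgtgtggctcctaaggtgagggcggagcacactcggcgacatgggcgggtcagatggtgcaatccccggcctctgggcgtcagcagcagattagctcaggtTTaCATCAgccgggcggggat
Chac1: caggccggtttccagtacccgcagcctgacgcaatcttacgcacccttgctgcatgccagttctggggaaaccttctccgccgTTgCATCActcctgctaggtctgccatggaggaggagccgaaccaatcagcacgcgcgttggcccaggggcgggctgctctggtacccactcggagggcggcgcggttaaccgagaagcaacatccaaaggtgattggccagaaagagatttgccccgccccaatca

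Herpud1 (chr19:10614708-10614957, minus strand) has a C/EBP-ATF match 184 to 177 bases and an XBP1 core 118 to 113 bases before the start. Canx (chr10:35157858-35158107, minus strand) has its ER stress element 230 to 212 bases before.
Herpud1: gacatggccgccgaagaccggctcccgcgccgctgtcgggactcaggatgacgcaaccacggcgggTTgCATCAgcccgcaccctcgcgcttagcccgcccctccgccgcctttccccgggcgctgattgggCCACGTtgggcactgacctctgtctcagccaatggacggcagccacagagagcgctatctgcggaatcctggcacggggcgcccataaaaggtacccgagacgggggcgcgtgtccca
Canx: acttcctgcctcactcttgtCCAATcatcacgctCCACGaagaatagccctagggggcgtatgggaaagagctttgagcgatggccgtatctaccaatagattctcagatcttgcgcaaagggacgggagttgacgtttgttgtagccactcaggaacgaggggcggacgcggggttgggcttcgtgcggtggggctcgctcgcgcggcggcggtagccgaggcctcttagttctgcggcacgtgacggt

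**Figure D1:**
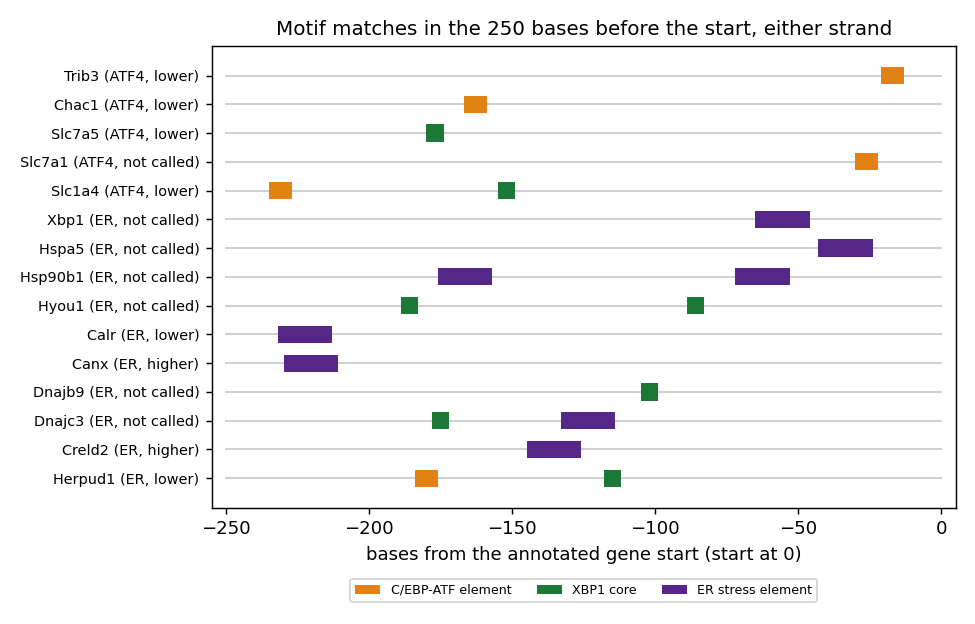
Positions of motif matches in the 250 bases before the annotated start (x axis, bases from the start at 0) for the genes with at least 1 match (y axis, with gene group and call). Orange bars are C/EBP-ATF elements, purple bars ER stress elements and green bars XBP1 cores; all 8 purple bars lie in ER genes and 4 of the 5 orange bars in ATF4 and amino acid genes.

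Values are RPKM, reads scaled by gene length and by the counted reads of each library. The libraries held 43061102 to 45293829 counted reads with GSK101 and 43973072 to 45705238 with DMSO. Each of the 40 genes passed the filter on low values (RPKM of 0.5 or more in 3 or more libraries), with 177 to 23109 reads per library for the ATF4 and amino acid genes and 538 to 274725 for the ER genes. Among 6 mesenchymal markers 1 rose and 2 fell, with sums of 10156 to 11374 RPKM with GSK101 against 11362 to 12426 in Ctrl. Pdgfra, which rose, averaged 16.0 RPKM with GSK101 and 11.7 in Ctrl. Thy1 and Pdgfrb, which fell, averaged 1282 and 52.2 RPKM with GSK101 and 1500 and 61.9 in Ctrl. Col1a1 averaged 1637 RPKM with GSK101 and 1903 in Ctrl and Vim 4503 and 4911 RPKM, and neither passed. The 5 chondrocyte markers summed to 53.8 to 73.5 RPKM with GSK101 against 41.6 to 51.9 in Ctrl, and of the 3 tested 1 rose. That gene, Prg4 (lubricin), averaged 31.2 ± 9.73 RPKM with GSK101 and 10.99 ± 2.26 in Ctrl (SD, n = 3; adjusted p = 0.0037), whereas Acan averaged 31.9 and 33.6 and Col2a1 was near 0 in both groups (0.0164 RPKM). The 4 smooth muscle markers all fell, with a summed level of 5457 to 5983 RPKM with GSK101 against 9542 to 9841 in Ctrl. The 4 cell cycle markers all rose, with sums of 248 to 251 against 124 to 131 RPKM. Sums of the 3 leukocyte markers measured overlapped, at 4.34 to 7.31 RPKM with GSK101 and 4.90 to 7.76 in Ctrl. Most of this was Cd68, which averaged 5.83 and 6.01 RPKM and did not pass, whereas Ptprc averaged 0.419 and 0.493 RPKM. The 2 endothelial markers measured summed to 0.993 to 1.07 against 0.512 to 0.697 RPKM. Most of this was Kdr, which averaged 1.01 RPKM with GSK101 and 0.551 in Ctrl and rose (limma adjusted p = 0.00875). Cdh5, at 0.00769 and 0.0332, was too low to be tested. The 3 skeletal muscle markers summed to 8.43 to 9.22 against 14.03 to 15.4 RPKM, and 2 of them fell. Both epithelial markers were near 0, with sums of 0.118 to 0.165 against 0.0504 to 0.114 RPKM. The part of the chondrocyte, muscle, cell cycle, endothelial and epithelial marker differences in the results below was not tested.

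The ATF4 and amino acid genes were lower with GSK101 as a rule. Of the 21 genes 13 fell and 0 rose (61.9% lower), where 11.9% of the 12801 genes tested fell and 20.1% rose at an adjusted p under 0.05 (limma on log2(RPKM + 0.5), Benjamini-Hochberg over all genes tested). The 3 GSK101 values lay below the 3 Ctrl values for 15 of the 21 and above them for 1, against 18.7% and 28.5% of all genes tested. The median log2 fold change was -0.19, and 0.03 over all genes tested. The ER genes moved less and in both directions, with 7 of 19 lower (36.8%), 2 higher (10.5%), and a median of -0.09. For 9 of these 19 the GSK101 values lay below all Ctrl values and for 2 above. The difference between the 2 groups of genes was not tested. Fewer cells of a type and less RNA per cell cannot be told apart in such bulk samples.

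The 22 called genes had absolute log2 fold changes from 0.11 to 0.60 with a median of 0.22, a size at which scaling between libraries mattered. Higher genes were 62.9% of all calls with the deposited scaling, 72.5% after rescaling to TPM, 52.7% with median-ratio scaling, 48.1% with quantile normalization and 46.8% with the gene length trend removed. In the same order, the ATF4 and amino acid genes that fell numbered 13, 9, 15, 15 and 16 and those that rose 0 each time. The ER genes that fell numbered 7, 3, 9, 4 and 9, and those that rose 2, 3, 1, 2 and 1. Without Ctrl replicate 2 the ER genes that fell numbered 2 and without GSK101 replicate 1 they numbered 3, and those that rose numbered 1 without any 1 library other than GSK101 replicate 3. Both medians stayed below 0 under each of the 17 alternatives, between -0.26 and -0.16 for the ATF4 and amino acid genes and between -0.13 and -0.049 for the ER genes.

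**Figure D2:**
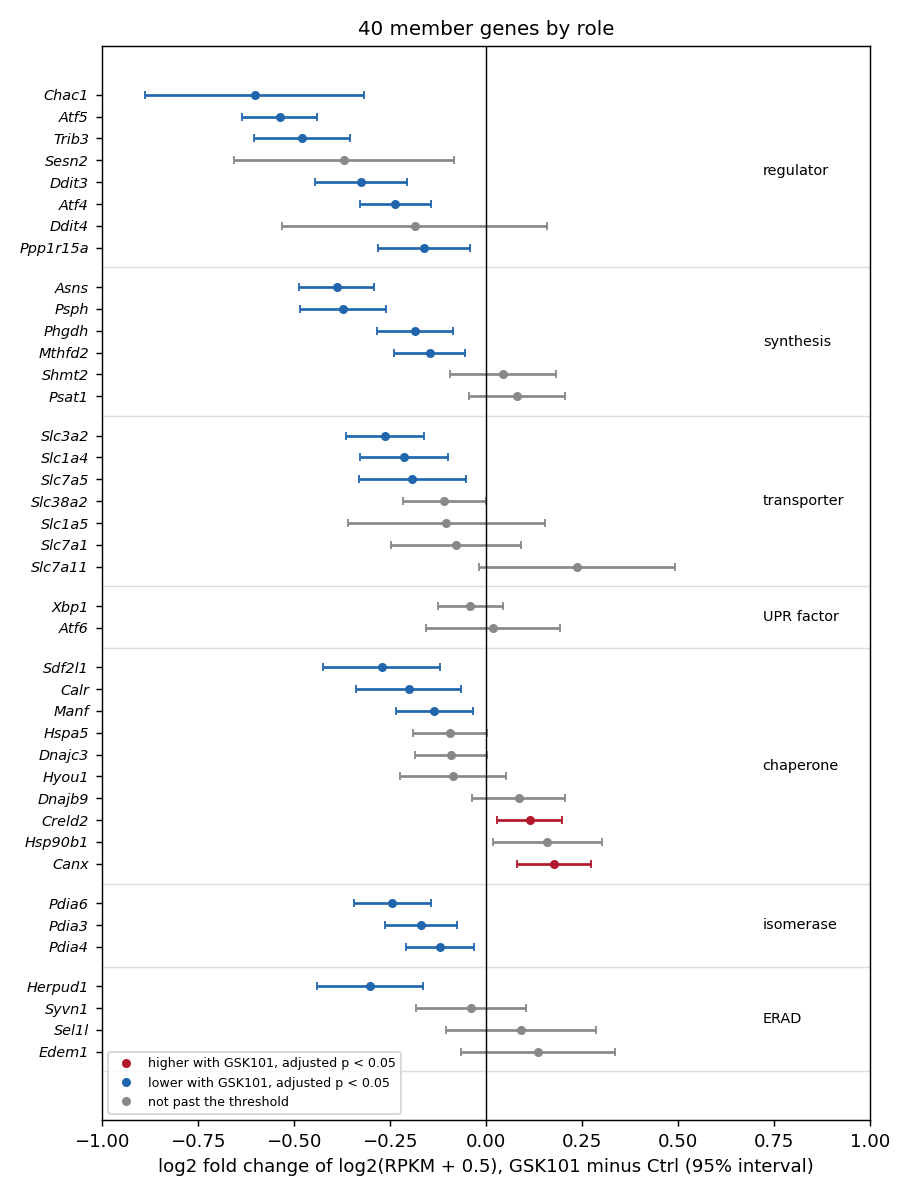
Log2 fold change of each of the 40 genes (x axis, GSK101 minus Ctrl on the log2(RPKM + 0.5) scale, bars are 95% intervals) by role (y axis, most negative first within a role). Blue points fell, red points rose and grey points did not pass; blue points fill most of the regulators, where Chac1 at -0.60 lies farthest from 0, and all 3 isomerases, and the only red points are Canx and Creld2.

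Among the regulators 6 of 8 fell (75%, against 11.9% of all genes tested). Atf4 itself (Rnor_6.0 chromosome 7, 121480723 to 121482772, plus strand), the factor at the centre of the response, had 226, 230 and 215 RPKM with GSK101, against 261, 264 and 265 in Ctrl. Its groups did not overlap, and its log2 fold change was -0.24 (SE 0.04, adjusted p = 0.00387). Atf5 (chromosome 1, 100808241 to 100810522, minus strand), a related stress factor that ATF4 signalling controls, had 138, 141 and 138 RPKM with GSK101 against 194, 202 and 211 in Ctrl. This was a fall by 0.54 (SE 0.04, adjusted p = 0.000177), the smallest adjusted p of the 40 genes. The GSK101 values of both genes lay close together and apart from those of Ctrl.

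Ddit3 (chromosome 7, 70580198 to 70585084, plus strand) encodes CHOP, a factor that promotes cell death under lasting stress. It had 207, 207 and 208 RPKM with GSK101 and 241, 264 and 275 in Ctrl, a fall by 0.33 (SE 0.05, adjusted p = 0.00305). Its exons overlap those of Mars on the opposite strand, and the use of strand in counting is not stated, so its level is less certain. Trib3 (chromosome 3, 147813473 to 147819571, minus strand), a pseudokinase induced by ATF4 and CHOP that feeds back on ATF4, had 15.4, 13.9 and 13.9 RPKM with GSK101. Its Ctrl values of 20.3, 20.1 and 20.4 were higher throughout, and the log2 fold change was -0.48 (SE 0.05, adjusted p = 0.00073). The Trib3 window above carries the C/EBP-ATF match nearest to a start among the 5.

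Chac1 (chromosome 3, 111160205 to 111163425, plus strand), an enzyme that breaks down glutathione, had the largest log2 fold change of the 40 genes in either direction. It had 11.1, 11.5 and 8.02 RPKM with GSK101, against 16.2, 15.7 and 15.0 in Ctrl. The mean of Ctrl was 1.53 times that of GSK101, and the log2 fold change was -0.60 (SE 0.12, adjusted p = 0.00843). Its GSK101 replicate 3 lay well below the other two, and without it the log2 fold change was -0.44 with the call kept. Ppp1r15a, which encodes GADD34, the phosphatase subunit that ends eIF2 phosphorylation, had 41.4, 42.5 and 37.8 RPKM with GSK101 against 45.5, 46.0 and 44.6 in Ctrl. Its fall by 0.16 (adjusted p = 0.0471) did not overlap between groups but lost its call in 8 of 17 alternatives, with adjusted p from 0.0169 to 0.155.

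The remaining regulators did not pass. Sesn2, a stress-induced inhibitor of mTORC1 signalling, had 10.98, 10.8 and 7.71 RPKM with GSK101 and 13.1, 12 and 12.9 in Ctrl. Its groups did not overlap, its log2 fold change was -0.37 (adjusted p = 0.0542), and it passed in 8 of 17 alternatives, with adjusted p from 0.00706 to 0.127. One of these left out GSK101 replicate 3, the low value, and there the log2 fold change was smaller, at -0.21. Ddit4, which encodes the mTORC1 inhibitor REDD1, had 3.36, 3.62 and 2.39 RPKM with GSK101 and 4.17, 3.48 and 3.13 in Ctrl, with overlapping groups and adjusted p = 0.384.

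**Figure D3:**
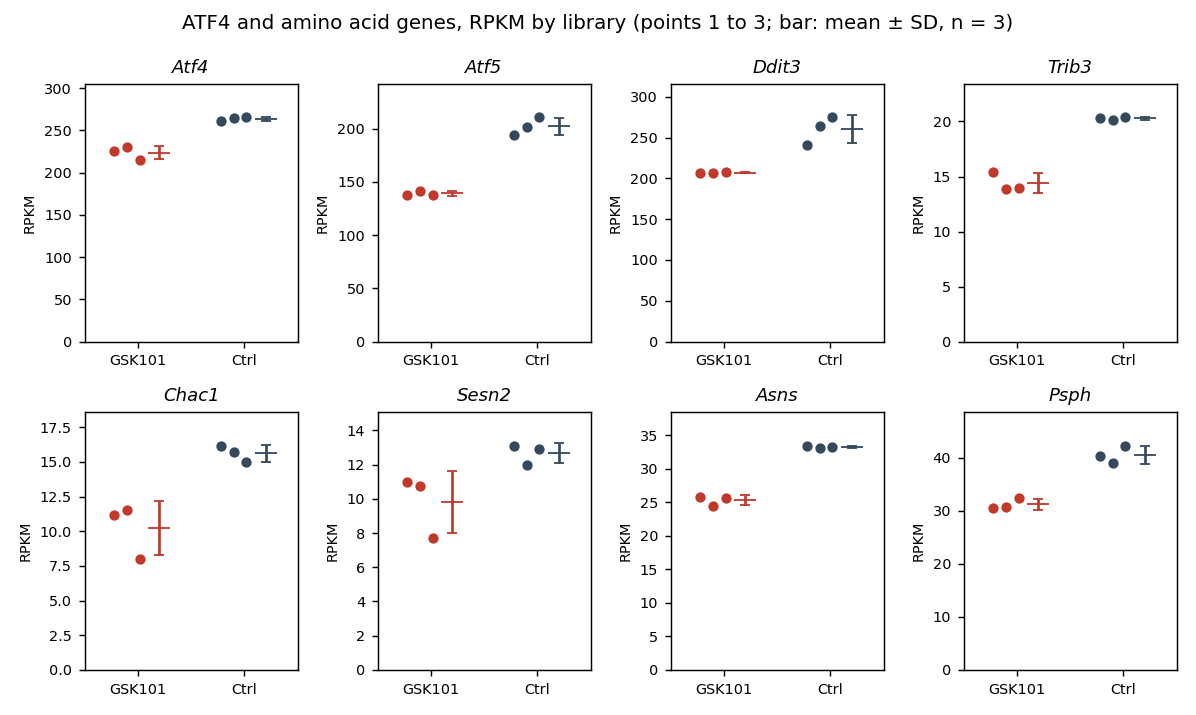
RPKM (y axis, from 0) of 8 ATF4 and amino acid genes in each library, GSK101 on the left and Ctrl on the right; points are replicates 1 to 3 from left to right and bars the mean ± SD (n = 3). In each of the 8 panels the 3 GSK101 points lie below the 3 Ctrl points, and in Chac1 and Sesn2 replicate 3 of GSK101 lies lowest.

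Of the 6 enzymes of amino acid synthesis and folate-linked carbon metabolism 4 fell (66.7%, against 11.9% of all genes tested) and 0 rose (against 20.1%). Asns, asparagine synthetase (chromosome 4, 33743364 to 33761163, minus strand), had 25.8, 24.4 and 25.7 RPKM with GSK101, against 33.5, 33.1 and 33.3 in Ctrl. The replicates were tight, and the fall was by 0.39 (SE 0.04, adjusted p = 0.000604). The serine pathway did not move as a block. Phgdh, which catalyses its first step, had 47.5, 48.7 and 51.1 RPKM with GSK101 and 56.8, 55.3 and 55.2 in Ctrl, a fall by 0.18 (adjusted p = 0.0139) that was lost without GSK101 replicate 1 (adjusted p = 0.0629). Psph, which catalyses the last step, had 30.6, 30.6 and 32.4 RPKM with GSK101 against 40.3, 39.0 and 42.3 in Ctrl, a fall by 0.37 (SE 0.05, adjusted p = 0.00126).

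Psat1, the aminotransferase between these steps, had 10.5, 9.67 and 9.98 RPKM with GSK101 and 9.52, 9.75 and 9.14 in Ctrl. Its groups overlapped, and its log2 fold change was 0.08 with a 95% interval from -0.05 to 0.21. Shmt2, the mitochondrial serine hydroxymethyltransferase that takes carbon units from serine, had 47.4, 48.9 and 42.1 RPKM with GSK101 and 45.2, 44.0 and 44.7 in Ctrl, with an interval from -0.09 to 0.18. Mthfd2, the mitochondrial enzyme of the next step, had 53.2, 53.1 and 54.1 RPKM with GSK101 and 60.7, 59.7 and 57.4 in Ctrl. It fell by 0.15 (adjusted p = 0.0251), with the call lost in 6 of 17 alternatives and adjusted p from 0.00968 to 0.109.

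Of the 7 amino acid transporter genes 3 fell (42.9%, against 11.9% of all genes tested). Slc3a2, the heavy chain CD98 that carries several light chains to the cell surface, had 66.4, 66.8 and 64.3 RPKM with GSK101 against 81.1, 75.4 and 80.9 in Ctrl. It fell by 0.26 (SE 0.04, adjusted p = 0.00368). Its light chain partner Slc7a5, the large neutral amino acid transporter LAT1, had 13.4, 12.6 and 12.7 RPKM with GSK101 and 15.9, 14.03 and 14.4 in Ctrl. The fall by 0.19 (adjusted p = 0.0433) was lost in 8 of 17 alternatives, with adjusted p from 0.00848 to 0.125. Slc7a11, the cystine transporter xCT and another partner of CD98, stood on the other side. It had 0.858, 1.03 and 1.06 RPKM with GSK101 and 0.674, 0.770 and 0.827 in Ctrl, with no overlap, a log2 fold change of 0.24 (95% interval -0.02 to 0.49, adjusted p = 0.143). Slc7a11 passed as higher in limma-voom on recovered reads (adjusted p = 0.016), its 1 call in 16 alternatives, and had a log2 fold change of 0.007 with the gene length trend removed.

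Slc1a4, a carrier of alanine, serine and cysteine, had 17.6, 17.9 and 16.4 RPKM with GSK101 and 20.6, 19.9 and 19.7 in Ctrl, a fall by 0.21 (SE 0.05, adjusted p = 0.0143; 0.053 after rescaling to TPM). Slc38a2, the sodium-coupled neutral amino acid transporter SNAT2, averaged 51.5 ± 0.534 with GSK101 and 55.7 ± 2.80 RPKM in Ctrl (SD, n = 3), did not overlap between groups and did not pass (adjusted p = 0.113). It passed as lower in 4 of 17 alternatives. The cationic amino acid transporter Slc7a1 averaged 3.997 ± 0.162 and 4.25 ± 0.322 RPKM and the glutamine transporter Slc1a5 3.23 ± 0.556 and 3.48 ± 0.230, with overlapping groups and adjusted p of 0.453 and 0.519. Slc7a1 passed as lower with the gene length trend removed (adjusted p = 0.0241).

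The stress factors of the ER side did not pass. Atf6, a membrane-bound factor released by cleavage, had 11.4, 10.6 and 10.4 RPKM with GSK101 and 11.4, 9.54 and 11.02 in Ctrl, and the 95% interval of its log2 fold change (0.02) ran from -0.16 to 0.19. Xbp1, whose messenger RNA the sensor IRE1 splices, had 175, 172 and 179 RPKM with GSK101 and 184, 179 and 179 in Ctrl, and the interval around its -0.04 ran from -0.13 to 0.05. These intervals limit a change of the total transcript and say nothing of the spliced form.

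Of the 10 ER chaperones and related luminal proteins 3 fell (30%, against 11.9% of all genes tested) and 5 did not pass. The 2 that rose (20%) were near the 20.1% of all genes tested. The lectin chaperones that hold glycoproteins during folding went in opposite directions with the deposited scaling, though each change all but vanished under 1 alternative. Calr, the soluble calreticulin (chromosome 19, 25956771 to 25961666, minus strand) and the most abundant of the 40 genes per length, had 2595, 2818 and 2685 RPKM with GSK101 against 3223, 3202 and 2894 in Ctrl. It fell by 0.20 (SE 0.06, adjusted p = 0.0344), and the call was lost in 9 of 17 alternatives, with adjusted p from 0.00604 to 0.755. With quantile normalization its log2 fold change was -0.028. Canx, the membrane-bound calnexin (chromosome 10, 35800942 to 35833861, minus strand), had 346, 349 and 356 RPKM with GSK101 and 297, 316 and 317 in Ctrl. It rose by 0.18 (SE 0.04, adjusted p = 0.0142) and lost its call only with the gene length trend removed (log2 fold change 0.05, adjusted p = 0.458). The ratio of Canx to Calr RPKM, a pair chosen after the values were seen, was 0.133, 0.124 and 0.133 with GSK101 and 0.0921, 0.0987 and 0.109 in Ctrl. Its lack of overlap follows from the values of both genes given above and adds no support.

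Hspa5, the Hsp70 chaperone BiP and a standard readout of ER stress, had 656, 683 and 680 RPKM with GSK101 and 706, 743 and 707 in Ctrl. The groups did not overlap, but the log2 fold change of -0.09 (95% interval -0.19 to 0.00) did not pass (adjusted p = 0.122), and passed as lower in 2 of 17 alternatives. Hsp90b1, the ER Hsp90 named GRP94, had 1365, 1447 and 1463 RPKM with GSK101 and 1182, 1367 and 1284 in Ctrl. Its groups overlapped, and the log2 fold change of 0.16 passed in 3 of 17 alternatives (adjusted p = 0.0847 here), ranging from 0.08 to 0.26 over the alternatives. An unnamed gene shares exon positions with Hsp90b1 on the same strand. The ratio of Hsp90b1 to Hspa5, also chosen after the values were seen, was 2.08, 2.12 and 2.15 with GSK101 and 1.67, 1.84 and 1.82 in Ctrl. Because of that choice it is given as a description only. Both genes carry an ER stress element in the window searched.

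Sdf2l1, a partner of BiP in an ER chaperone complex, had 13.3, 13.2 and 11.7 RPKM with GSK101 and 16.2, 15.7 and 14.6 in Ctrl. It fell by 0.27 (SE 0.07, adjusted p = 0.0163; 0.051 without Ctrl replicate 2). Manf, a secreted ER stress protein, had 231, 216 and 217 RPKM with GSK101 against 236, 244 and 249 in Ctrl, a fall by 0.13 (adjusted p = 0.0468) lost in 10 of 17 alternatives. Creld2, an ER stress-induced protein with disulfide isomerase activity, had 61.8, 61.6 and 63.3 RPKM with GSK101 against 57.9, 57.3 and 57.2 in Ctrl, a rise by 0.11 (adjusted p = 0.0467) lost in 11 of 17. The adjusted p over the alternatives ran from 0.0161 to 0.142 for Manf and from 0.0217 to 0.166 for Creld2, whose log2 fold change was 0.074 with median-ratio scaling.

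The other chaperone genes did not pass. The nucleotide exchange factor Hyou1 averaged 31.9 ± 1.73 RPKM with GSK101 and 33.9 ± 2.01 in Ctrl, and the BiP cochaperone Dnajb9 12.4 ± 0.538 and 11.7 ± 0.297, with overlapping groups (adjusted p = 0.313 and 0.257). Dnajc3, a cochaperone also known as p58IPK, averaged 66.3 ± 1.47 with GSK101 and 70.7 ± 1.93 in Ctrl (SD, n = 3), without overlap (adjusted p = 0.122). Hyou1 passed as lower in 1 of 17 alternatives and Dnajc3 in 2.

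All 3 disulfide isomerases, which form and rearrange disulfide bonds, fell, where 11.9% of all genes tested did. Pdia6 (chromosome 6, 42568220 to 42585652, plus strand), which also acts on the stress sensors, had 563, 583 and 592 RPKM with GSK101 against 699.7, 698 and 660.0 in Ctrl. It fell by 0.24 (SE 0.04, adjusted p = 0.00451) and kept its call in all 17 alternatives. Pdia3, which works with the lectin chaperones, had 331, 348 and 332 RPKM with GSK101 and 378, 389 and 371 in Ctrl, a fall by 0.17 (adjusted p = 0.0157) lost in 4 alternatives, with adjusted p from 0.00722 to 0.0719. Pdia4 had 334, 336 and 349 RPKM with GSK101 and 375, 369 and 363 in Ctrl. Its fall by 0.12 (adjusted p = 0.0448) was lost in 10 alternatives, with adjusted p from 0.0141 to 0.207 and a log2 fold change of -0.067 with quantile normalization, and an unnamed gene shares exon positions with it on the same strand.

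Of the 4 ERAD genes 1 fell (25%, against 11.9% of all genes tested). Herpud1 (chromosome 19, 11046909 to 11057254, minus strand), a membrane component of the degradation complex, had 21.5, 19.5 and 18.5 RPKM with GSK101 against 24.2, 24.5 and 24.8 in Ctrl. It fell by 0.30 (SE 0.06, adjusted p = 0.00696) and kept its call in all 17 alternatives. Herpud1 was also the only gene of the ER group with a C/EBP-ATF match in the window shown above. The ubiquitin ligase gene Syvn1 averaged 7.02 ± 0.381 RPKM with GSK101 and 7.23 ± 0.298 in Ctrl, its partner Sel1l 21.2 ± 1.16 and 20.0 ± 2.22, and the mannosidase-like Edem1 13.5 ± 1.59 and 12.2 ± 0.601 (SD, n = 3). These 3 overlapped between groups, with adjusted p of 0.667, 0.453 and 0.277. Edem1 was 14.4, 14.4 and 11.7 RPKM across the GSK101 libraries and passed as higher without replicate 3 (adjusted p = 0.0331), and Syvn1 shares exon positions with Mrpl49 on the opposite strand.

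**Figure D4:**
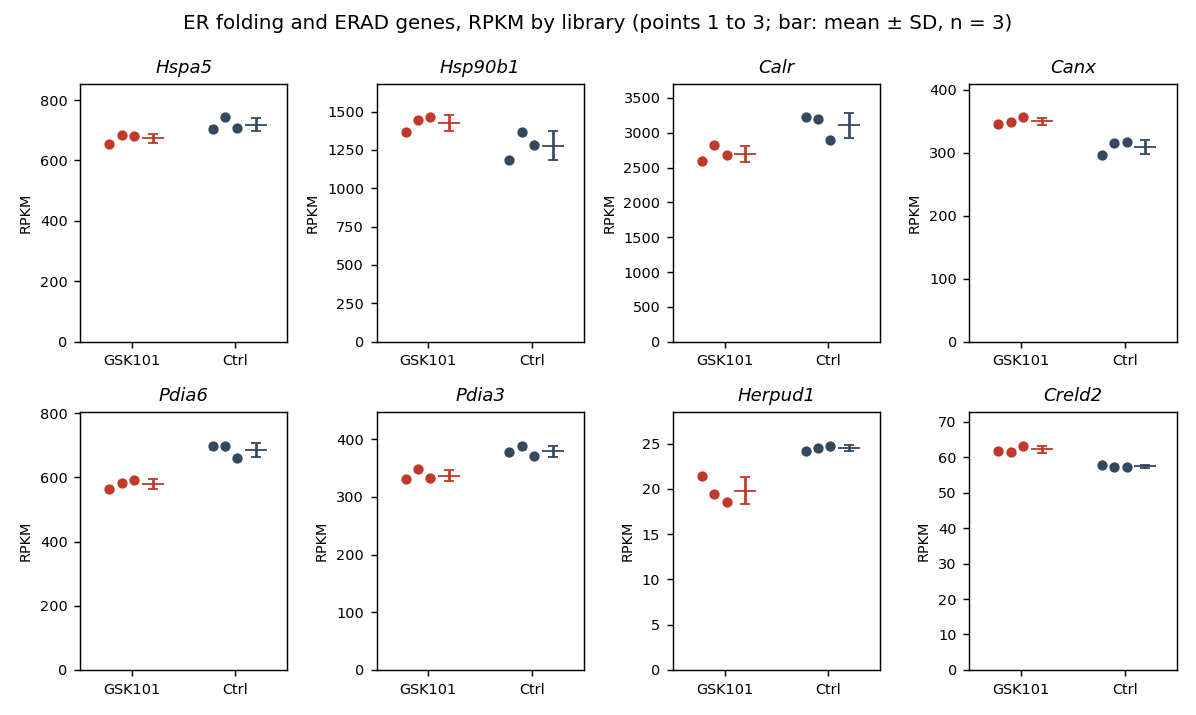
RPKM (y axis, from 0) of 8 ER genes in each library, GSK101 on the left and Ctrl on the right; points are replicates 1 to 3 from left to right and bars the mean ± SD (n = 3). Canx and Creld2 lie higher with GSK101, Calr, Pdia6, Pdia3 and Herpud1 lower, and the GSK101 and Ctrl points of Hsp90b1 overlap.

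By role and library, the mean log2 difference from the Ctrl mean was -0.30, -0.29 and -0.51 for the 8 regulators in the 3 GSK101 libraries, -0.15, -0.17 and -0.16 for the 6 enzymes and -0.12, -0.05 and -0.14 for the 7 transporters. It was -0.21, -0.16 and -0.16 for the 3 isomerases, -0.04, -0.01 and -0.04 for the 10 chaperones and 0.05, 0.00 and -0.14 for the 4 ERAD genes. For Atf6 and Xbp1 together it was 0.02, -0.04 and -0.02. The enzymes agreed best between libraries, while the regulators, the transporters and the ERAD genes were lowest in GSK101 replicate 3. Over the whole groups the means were -0.20, -0.17 and -0.28 for the ATF4 and amino acid genes and -0.04, -0.04 and -0.08 for the ER genes. The ATF4 and amino acid genes held 0.190 ± 0.00441% of the counted reads with GSK101 and 0.225 ± 0.000645% in Ctrl (SD, n = 3), without overlap. The ER genes held 1.66 ± 0.0429% and 1.71 ± 0.0519%, with overlap.

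**Figure D5:**
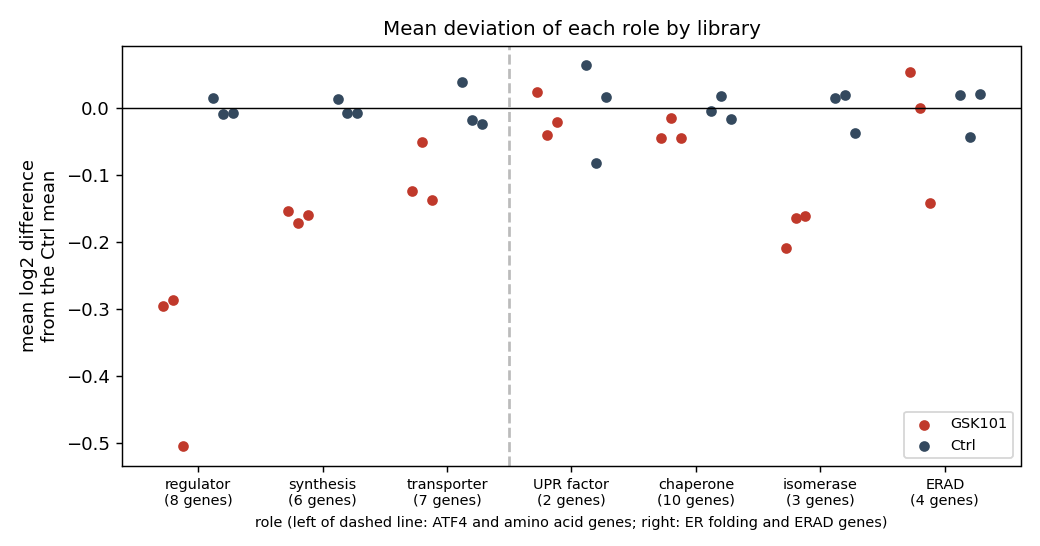
Mean log2 difference from the Ctrl mean on the log2(RPKM + 0.5) scale (y axis) over the genes of each role (x axis), with GSK101 libraries in red to the left of Ctrl libraries in dark grey and 1 point per library. The red points of the regulators, at -0.29 to -0.51, lie farthest from 0, and those of the chaperones, at -0.04 to -0.01, lie close to it.

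Further genes of the same pathways, 66 listed of which 64 were in the file and 60 were tested, were read from the same fit. The first list held 13 genes of eIF2, its kinases and exchange factor, ER sensors and the proteases Mbtps1 and Mbtps2, which cleave ATF6. Of these 13, 2 rose (15.4%) and 0 fell, and the share that rose was no higher than the 20.1% of all genes tested. Eif2ak2, the kinase PKR, had 12.5, 13.5 and 13.3 RPKM with GSK101 against 7.97, 10.02 and 10.6 in Ctrl, a rise by 0.45 (SE 0.10, adjusted p = 0.0107). Eif2s1, the eIF2 subunit that is phosphorylated, averaged 103 ± 4.73 RPKM with GSK101 and 92.6 ± 3.33 in Ctrl, a rise by 0.16 (adjusted p = 0.0439) that was lost in 10 of 17 alternatives (adjusted p from 0.011 to 0.149). Without any 1 library other than GSK101 replicate 2, only Eif2ak2 rose.

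Of 14 tested further ATF4 targets 5 fell (35.7%, against 11.9% of all genes tested) and 1 rose (7.14%, against 20.1%), with a median log2 fold change of -0.13. Vldlr, a lipoprotein receptor, had 15.5, 16.3 and 15.8 RPKM with GSK101 against 19.5, 19.1 and 21.3 in Ctrl and fell by 0.32 (SE 0.05, adjusted p = 0.00389). The mitochondrial folate enzymes named from this list differed in direction. Mthfd1l averaged 9.06 ± 0.652 RPKM with GSK101 and 7.12 ± 0.386 in Ctrl and rose by 0.33 (adjusted p = 0.00965), whereas Aldh1l2 averaged 60.6 ± 0.689 and 67.3 ± 1.08 and fell by 0.15 (adjusted p = 0.017; 0.0041 to 0.0819 over the alternatives). Aldh18a1, an enzyme of proline synthesis, averaged 9.40 ± 0.112 with GSK101 and 10.8 ± 0.358 RPKM in Ctrl (SD, n = 3) and fell by 0.19 (adjusted p = 0.0222; 0.00202 to 0.079 over the alternatives, with log2 fold changes from -0.37 to -0.15). The number that fell ranged from 1, without Ctrl replicate 2, to 7 over the alternatives, and was 2 without Ctrl replicate 1 or GSK101 replicate 1 and 3 without GSK101 replicate 2 or 3.

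Of 12 further ER folding genes 6 fell (against 11.9% of all genes tested) and 1 rose (8.33%, against 20.1%), with a median of -0.13. Sil1, the nucleotide exchange factor of BiP, had 34.6, 34.2 and 33.3 RPKM with GSK101 against 42.2, 42.7 and 44.4 in Ctrl and fell by 0.34 (SE 0.04, adjusted p = 0.00103). Ppib, the collagen-folding cyclophilin B, averaged 769.5 ± 22.1 with GSK101 and 947 ± 48.01 RPKM in Ctrl and fell by 0.30 (adjusted p = 0.00355). Selenos, listed in the file as Vimp, a selenoprotein that takes part in ERAD, averaged 274 ± 8.66 and 337 ± 17.4 and also fell by 0.30 (adjusted p = 0.00341). The 1 that rose was Dnajc10, a disulfide reductase with a DnaJ domain, at 57.5, 56.1 and 57.1 RPKM with GSK101 against 45.5, 46.7 and 47.5 in Ctrl, by 0.29 (SE 0.04, adjusted p = 0.0015), with log2 fold changes from 0.17 to 0.32 over the alternatives.

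Of 21 tested further ERAD and translocation genes 5 fell (23.8%, against 11.9% of all genes tested) and 4 rose (19.0%, near the 20.1% of all genes), with a median of -0.04. Edem3, a mannosidase that marks glycoproteins for degradation, had 18.4, 18.5 and 18.6 RPKM with GSK101 against 14.6, 12.04 and 14.4 in Ctrl and rose by 0.43 (SE 0.07, adjusted p = 0.00425). Os9, a lectin that delivers glycoproteins to ERAD, averaged 244 ± 11.7 with GSK101 and 288 ± 7.22 RPKM in Ctrl and fell by 0.24 (adjusted p = 0.00691). Ssr1, a subunit of the translocon-associated complex, and Sec62, a translocon partner, rose by 0.20 and 0.24 (adjusted p = 0.00833 and 0.0102). The number that fell was 1 without Ctrl replicate 2 or GSK101 replicate 2, 2 without GSK101 replicate 3 and 3 without GSK101 replicate 1.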

How the data were processed

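Per the submitters' processing notes, Trimmomatic 0.36, STAR 2.5.3a, featureCounts, Subread 1.5.1 and edgeR 3.12.1 and the build Rnor_6.0 were used, with no roles given. Polyadenylated RNA was sequenced from a stranded kit with molecular identifiers, per the labels' protocols. Strand use, multi-mapping and collapsing of identifiers are not given in the sources used here, and reads from near-identical gene copies could not be told apart. The authors deposited RPKM values, whose products with gene length were whole multiples of 1 read (100% of values within 0.01 of a read) and gave the counted reads. Counting noise was not modelled in the main test.

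Values were taken as log2(RPKM + 0.5) and fitted by group alone in limma 3.58.1 (R 4.3.3), with a variance trend, for the 12801 genes at 0.5 RPKM or more in 3 or more of 6 libraries. A gene was called at an adjusted p under 0.05 over all genes tested, and fold changes on this scale understate those of low genes. The script was tested on simulated data. Members, lists and naming rules were chosen with earlier results of these data known. All 40 members are given, and from each further list up to 4 called genes with the smallest adjusted p. Further genes Nupr1 and Cth were not matched by symbol. Alternatives were other pseudocounts (0.1, 1), filters, scalings and variance models, a replicate block and leaving out each library, plus removal of the gene length trend (loess, span 0.3), chosen after the data were seen. The 2 groups share the replicate numbers 1 to 3, and whether these pair the libraries is not known.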

Additional observations from a re-analysis of the deposited data

How the results depend on the processing

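Under 17 alternatives, 586 values of single genes kept their call, 70 lost it, 23 gained it and none reversed. Atf4, Atf5, Ddit3, Trib3, Chac1, Asns, Psph, Slc3a2, Pdia6 and Herpud1 were called in each. The ER genes lower (7) were 4 with no filter, quantile normalization, no variance trend or the replicate block, 3 after rescaling to TPM and 2 to 5 on leaving out 1 library (2 without Ctrl replicate 2, 3 without GSK101 replicate 1). Those higher (2) were 1 with median-ratio scaling, no variance trend, the replicate block or the length trend removed, and 1 to 2 leaving out 1 library. The ATF4 and amino acid genes that rose (0) were 1 with limma-voom, and those lower (13) were 10 to 12 leaving out 1 library. Their median of -0.19 was -0.26 with quantile normalization and with the length trend removed. The ER median of -0.09 was -0.049 after rescaling to TPM, -0.13 with median-ratio scaling, -0.066 with quantile normalization, -0.13 with the length trend removed, and -0.077 to -0.055 leaving out 1 library. eIF2 and sensor genes that rose (2) were 1 with no filter, median-ratio scaling, quantile normalization, no variance trend or the block and 1 to 2 leaving out 1 library. Those lower (0) were 1 with median-ratio scaling or limma-voom and 2 with quantile normalization or the length trend removed. Further ATF4 targets that rose (1) were 2 with the block, and those lower (5) were 3 with no filter or TPM and 1 to 5 leaving out 1 library. Further ERAD genes lower (5) were 3 with TPM, 8 with quantile normalization and 1 to 4 leaving out 1 library. The cause was not tested.

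The block changed Sesn2 to called and ended the calls of Calr, Creld2, Manf and Pdia4. The deviations of same-numbered libraries correlated at 0.05, -0.06 and 0.05, and those of differently numbered libraries at -0.15 to 0.11. With 3 libraries in each group, these values cannot show whether the numbers pair the libraries.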

Other observations

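Within the GSK101 group, replicate 3 held the lowest of the 3 values for 10 of the 21 ATF4 and amino acid genes, replicate 1 for 6 and replicate 2 for 5. Among the 19 ER genes the lowest value lay in replicate 1 for 8, in replicate 3 for 7 and in replicate 2 for 4. Gdf15, a secreted stress cytokine on the list of further ATF4 targets and named here after its values were seen, had 0.542, 0.484 and 0.356 RPKM with GSK101 against 1.152, 0.848 and 0.695 in Ctrl. The Ctrl mean was 1.95 times the GSK101 mean, with a log2 fold change of -0.53 (limma adjusted p = 0.0317; 0.0237 to 0.0907 over the alternatives, with log2 fold changes from -0.93 to -0.37). Gdf15 was called in only 10 of 16 alternatives. Its GSK101 values of 0.484 and 0.356 lay under the filter of 0.5 RPKM, and it was tested because its Ctrl values, the higher group, met that filter. The adjusted p of Gdf15 is therefore given as a description only. The gene had 14 to 48 reads per library. Such low counts make this change less certain, as counting noise was not modelled in the main test. Pycr1, of proline synthesis, also named after its values were seen, averaged 4.51 ± 0.550 RPKM with GSK101 and 6.12 ± 0.698 in Ctrl (SD, n = 3), a fall by 0.40 (limma adjusted p = 0.0241; 0.0099 to 0.0787 over the alternatives).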
